A study of Mus musculus with 58 samples.

Results

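The genes described here encode the mitochondrial carriers of the solute carrier family 25. All probe sets whose annotated symbol was Slc25a followed by a number were taken, which gave 45 of the 23185 named genes and of the 25206 probe sets on the arrays. Slc25a5 and Slc25a52 had no named probe set and were not analysed here. Adult female NSG mice, an immunodeficient strain, carried pieces of human pancreatic ductal adenocarcinoma, resected from cachectic patients, on the pancreas as a patient-derived xenograft (PDX). Sham mice of the same strain and sex had the surgery without a tumour. The mice were killed at severe cachexia, a wasting of muscle and fat, or when tumours exceeded 3 cm in diameter, so no common time after implantation was set. Tumours of 4 patients made 4 cohorts, each tumour standing for 1 patient, and each cohort had its own sham group. Of the limb the tibialis anterior of the shin, and of the trunk the diaphragm, the main breathing muscle, were measured, on 12 sham and 17 PDX arrays each. Per muscle there were 3 sham arrays in every cohort and 3, 5, 5 and 4 PDX arrays in cohorts 1 to 4. Values are log2 signals, with array medians between 3.70 and 3.86. The labels do not state that every array is a separate animal, so a p-value here reflects only how far these samples scatter, which may be technical.

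Mitochondrial carriers are small proteins of the inner mitochondrial membrane, most of which exchange a solute of the matrix for a solute of the cytosol. Through them ADP, phosphate, acylcarnitines and the reducing equivalents of the malate-aspartate shuttle enter the matrix, and ATP leaves it. Muscle depends on them for the supply of ATP to contraction, and the adenine nucleotide carrier encoded by Slc25a4 is its main heart and skeletal muscle form. Other members carry amino acids, iron, cofactors and nucleotides, and a few, such as Slc25a46 in the outer membrane, are not known as solute carriers.

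The labelled tissue was borne out by its markers. The mean of 10 skeletal muscle markers lay between 9.55 and 10.1 in the tibialis anterior and between 10.1 and 11.2 in the diaphragm. In 13 of 29 diaphragm arrays, 6 sham and 7 PDX, the mean of 17 hepatocyte markers lay between 6.72 and 10.9, against 3.69 to 6.40 in the other 16 and 3.22 to 5.92 in the tibialis anterior. Those 13 arrays, which include all 3 PDX arrays of cohort 1, are called hepatocyte-positive below, and diaphragm differences that passed over all cohorts are given with and without them. The 16 others still include Alb signals up to 10.2. In cohorts 1 and 3 they hold 1 sham array each, so fits without the hepatocyte-positive arrays rest partly on single arrays. These are whole-tissue samples, in which fewer cells of a type and less RNA per cell cannot be told apart. The mean signal of 11 members (Slc25a2, Slc25a14, Slc25a18, Slc25a21, Slc25a31, Slc25a40, Slc25a41, Slc25a43, Slc25a48, Slc25a53 and Slc25a54) lay under the median of all values, 3.78, where a difference is hard to measure.

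In the tibialis anterior of tumour-bearing mice, Slc25a11 and Slc25a12 of the malate-aspartate shuttle, the acylcarnitine carrier Slc25a20, the ornithine carrier Slc25a15 and Slc25a39, needed for glutathione import, were lower, and mitoferrin 2 was higher. Of the calcium-regulated ATP-magnesium carriers, Slc25a25 was higher and Slc25a23 lower. Slc25a40, the relative of Slc25a39, did not pass (0.08, adjusted p = 0.687). Of 45 members, 3 rose and 7 fell at a Benjamini-Hochberg adjusted p under 0.05 in limma, and 35 did not pass, with log2 differences between -0.33 and 0.26. Of all genes tested, 6.32% rose and 6.53% fell, 12.8% together. The median difference (PDX minus sham, the mean of 4 cohort differences) was -0.08 over the members and -0.01 over all genes. In the diaphragm, 2 members rose and 8 fell, against 5.89% and 6.58% of all genes, 12.5% together. The median difference there was -0.10 over the members and -0.00 over all genes. No member had all PDX arrays above, or all below, all sham arrays. That held for 0.0388% of genes each way in the tibialis anterior, and for 0.069% above and 0.0388% below in the diaphragm.

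**Figure D1:**
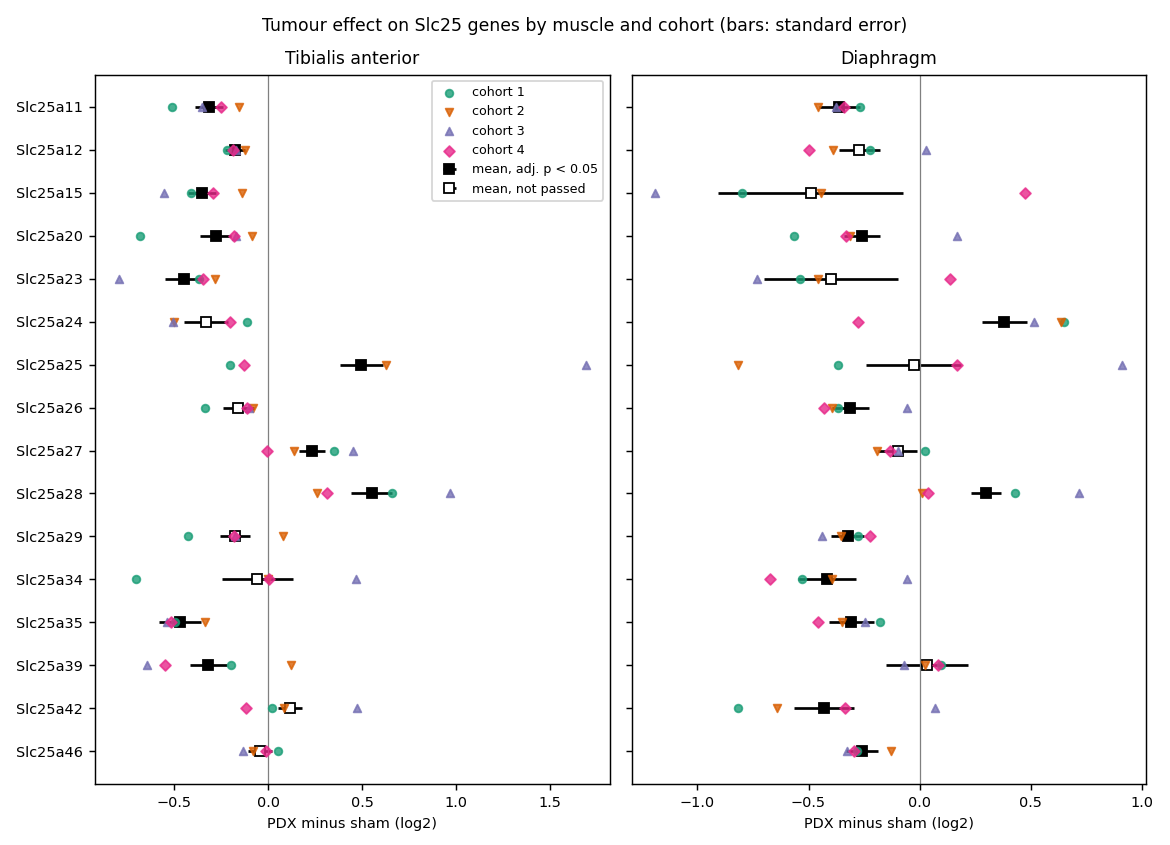
PDX minus sham log2 differences for the 16 members that passed in at least 1 muscle. Coloured points are the 4 cohorts, black squares the mean over cohorts with its standard error, filled where the adjusted p was under 0.05. Slc25a11, Slc25a26 and Slc25a35 lie left of 0 in every cohort of both muscles, and Slc25a25 spreads from -0.20 to 1.69 in the tibialis anterior.

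In both muscles 3 carriers fell, as did 2.36% of all genes. Slc25a11 encodes the carrier that exchanges malate for 2-oxoglutarate in the malate-aspartate shuttle. Its tibialis anterior signal ran from 9.65 through a median of 9.82 to 10.05 in sham arrays and from 8.84 through 9.61 to 9.79 in PDX arrays. The groups overlapped over all cohorts, while in cohort 1 every PDX array (9.62, 9.46 and 9.45) lay under every sham array (9.98, 10.05 and 10.04). It fell by 0.32 on the log2 scale (0.804-fold, SE 0.08, adjusted p = 0.00465), with cohort differences of -0.51, -0.15, -0.35 and -0.25. In the diaphragm it ran from 9.40 through 9.55 to 9.85 in sham arrays and from 8.70 through 9.34 to 9.57 in PDX arrays. There every PDX array lay under every sham array in cohorts 1, 3 and 4, a separation in at least 3 cohorts that 1.22% of all genes showed. The log2 difference was -0.36 (0.778-fold, SE 0.09, adjusted p = 0.00970). Fitted without the hepatocyte-positive arrays, which leaves cohorts 2 to 4, the difference was -0.37 (SE 0.11, adjusted p = 0.0811), and with the hepatocyte mean as a covariate it was -0.37 (adjusted p = 0.00139).

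Slc25a20 encodes the carnitine-acylcarnitine carrier, the step by which long-chain acyl groups enter the matrix for beta-oxidation. Its tibialis anterior values ran from 6.65 through 6.95 to 7.75 in sham arrays and from 6.22 through 6.79 to 7.21 in PDX arrays, and the groups overlapped. It fell by 0.28 (0.824-fold, SE 0.08, adjusted p = 0.0262). Cohort 1 had the largest difference, -0.68, where the sham arrays read 7.68, 7.39 and 7.75 and the PDX arrays 6.56, 7.06 and 7.16. The other cohorts had -0.08, -0.17 and -0.18. The call was lost without sham array 1 of cohort 4 (adjusted p = 0.0619), sham array 3 of cohort 1 (0.0544) or PDX array 1 of cohort 1 (0.0643). In the diaphragm it ran from 6.99 through 7.51 to 8.39 in sham and from 6.83 through 7.33 to 7.79 in PDX arrays. It fell there by 0.26 (0.835-fold, SE 0.08, adjusted p = 0.0352), with cohort differences of -0.56, -0.31, 0.17 and -0.33. In 9 of 29 fits that each left out 1 diaphragm array the call was lost, with adjusted p up to 0.0750. Without the hepatocyte-positive arrays the difference was -0.29 (SE 0.12, adjusted p = 0.217).

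Slc25a35, a family member to which no single substrate is assigned here, had negative differences in all 4 cohorts of both muscles. In the tibialis anterior it ran from 5.37 through 5.72 to 6.15 in sham arrays and from 3.89 through 5.29 to 5.72 in PDX arrays. The lowest value was PDX array 1 of cohort 3, and in cohorts 1 and 4 all PDX arrays lay under all sham arrays. It fell by 0.47 (0.723-fold, SE 0.11, adjusted p = 0.00502). In the diaphragm it ran from 5.17 through 5.56 to 6.11 in sham and from 4.59 through 5.24 to 5.96 in PDX arrays, which overlapped. The log2 difference was -0.31 (0.808-fold, SE 0.10, adjusted p = 0.0485), and it lost its call in 20 of 29 fits without 1 array (adjusted p up to 0.101). The call was lost without the hepatocyte-positive arrays, at -0.23 (SE 0.14, adjusted p = 0.415).

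Slc25a28 encodes mitoferrin 2, which brings iron into the matrix for haem and iron-sulphur cluster synthesis, and was the only member to rise in both muscles, as did 1.23% of all genes. Across the tibialis anterior it ran from 6.49 through 6.98 to 7.29 in sham arrays and from 6.98 through 7.40 to 8.65 in PDX arrays. All PDX arrays lay above all sham arrays in cohorts 1, 2 and 3, as for 1.41% of all genes in at least 3 cohorts, while the groups overlapped in cohort 4. It rose by 0.55 (1.46-fold, SE 0.11, adjusted p = 0.000808), with cohort differences of 0.66, 0.26, 0.97 and 0.32. In the diaphragm it ran from 6.09 through 6.57 to 6.86 in sham arrays and from 6.35 through 6.86 to 7.30 in PDX arrays. The rise of 0.30 (1.23-fold, SE 0.07, adjusted p = 0.00363) came with cohort differences of 0.43, 0.01, 0.72 and 0.04. Leaving out the hepatocyte-positive arrays gave 0.21 (SE 0.10, adjusted p = 0.309), and the hepatocyte covariate 0.30 (adjusted p = 0.00215).

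Slc25a37 encodes mitoferrin 1, the form needed by developing red cells. It did not pass in the tibialis anterior (0.26, SE 0.10, adjusted p = 0.0855) or the diaphragm (0.23, SE 0.16, adjusted p = 0.412). Cohort 1 stood apart in both: its tibialis anterior PDX arrays read 7.72, 6.92 and 6.94 and its sham arrays 5.97, 6.19 and 6.27. That cohort difference was 1.05 (adjusted p = 0.00594), against 0.31, -0.08 and -0.23 in cohorts 2 to 4. In the diaphragm the cohort differences were 1.12, 0.28, -0.32 and -0.15. The mean of 3 erythroid markers (Hbb-b1, Alas2 and Slc4a1) lay between 6.46 and 7.68 in the PDX and between 4.51 and 5.20 in the sham tibialis anterior of cohort 1. In the diaphragm of cohort 1 it lay between 5.70 and 8.52 in PDX and between 4.81 and 5.67 in sham arrays. All 3 erythroid markers rose in the tibialis anterior over the 4 cohorts, 1 of 3 rose in the diaphragm, and 1 had a mean under 3.78 in the sham tibialis anterior. The part of red cell RNA in the mitoferrin values was not tested.

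**Figure D2:**
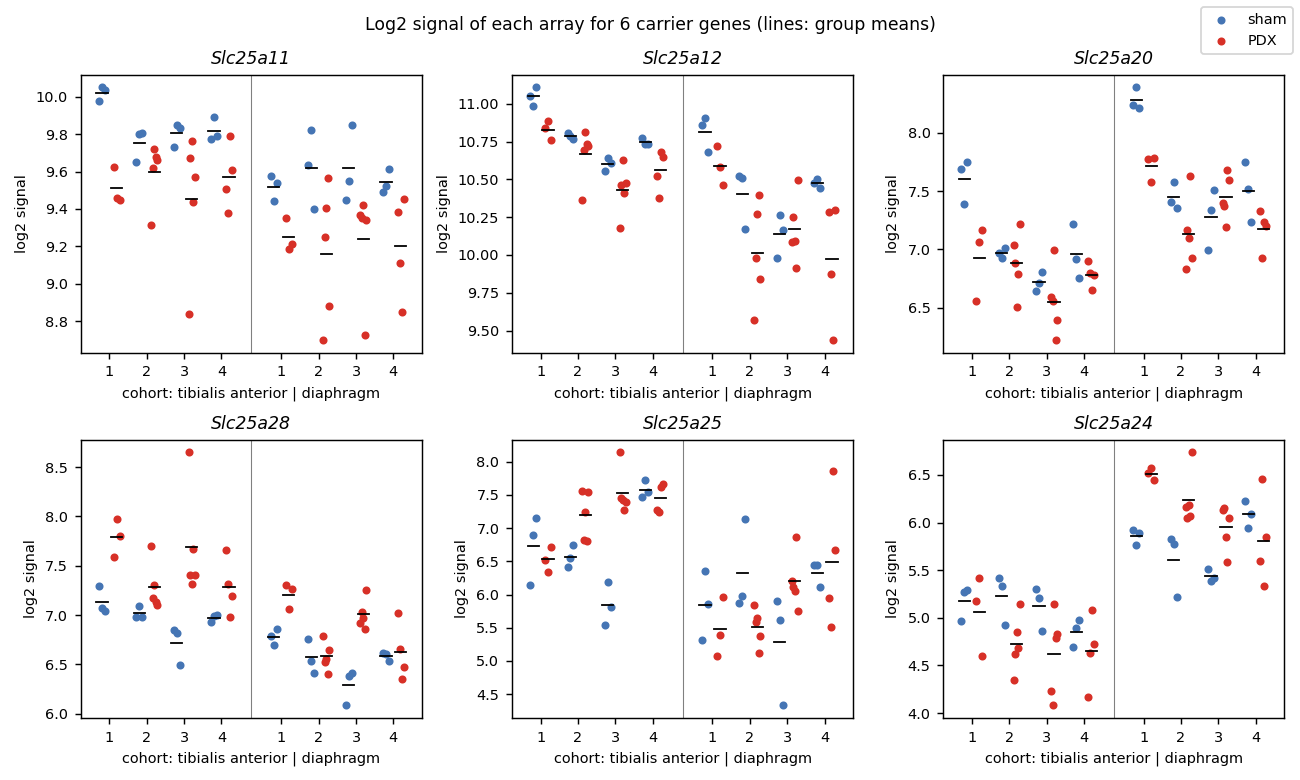
Log2 signal of every array (points) and group means (lines) for 6 members, with sham in blue and PDX in red, by cohort within each muscle. Slc25a28 PDX arrays of the tibialis anterior reach 8.65 in cohort 3, and Slc25a24 separates sham from PDX upward in the diaphragm of cohorts 1, 2 and 3.

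The ATP-magnesium carriers move adenine nucleotides in exchange for phosphate and so set the size of the matrix nucleotide pool, and Slc25a23, Slc25a24 and Slc25a25 encode forms that calcium activates. They did not move together. Slc25a25 in the tibialis anterior ran from 5.54 through 6.64 to 7.72 in sham and from 6.34 through 7.27 to 8.14 in PDX arrays. It rose by 0.50 (1.41-fold, SE 0.11, adjusted p = 0.00313), but in cohorts 1 and 4 the differences were -0.20 and -0.13. In the diaphragm its difference was -0.03 (SE 0.21, adjusted p = 0.968).

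Slc25a23 in the tibialis anterior ran from 6.28 through 6.81 to 6.96 in sham and from 4.92 through 6.38 to 6.90 in PDX arrays. It fell by 0.45 (0.734-fold, SE 0.10, adjusted p = 0.00337), and in cohorts 3 and 4 all PDX arrays lay under all sham arrays. Its difference in the diaphragm was -0.40 (SE 0.30, adjusted p = 0.488).

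Slc25a24 in the diaphragm ran from 5.22 through 5.80 to 6.23 in sham and from 5.34 through 6.13 to 6.74 in PDX arrays. In cohorts 1, 2 and 3 every PDX array lay above every sham array, as for 1.26% of all genes in at least 3 cohorts, while cohort 4 had a difference of -0.28. It rose by 0.38 (1.30-fold, SE 0.10, adjusted p = 0.0118). In the tibialis anterior the difference was -0.33 (SE 0.12, adjusted p = 0.0630), negative in all 4 cohorts. Without the hepatocyte-positive arrays the diaphragm difference was 0.35 (SE 0.15, adjusted p = 0.216). Markers of connective tissue and macrophages ran alongside. Of 8 fibro-adipogenic and fibroblast markers, 3 rose in the diaphragm (list mean between 7.33 and 8.04 in sham arrays and between 7.32 and 8.89 in PDX arrays) and 8 fell in the tibialis anterior (6.91 to 7.63 in sham, 4.75 to 6.74 in PDX). Of 7 macrophage markers, 6 rose in the diaphragm, with list means between 5.72 and 6.60 in sham arrays and between 6.24 and 7.94 in PDX arrays. None of these markers had a group mean under 3.78 in the diaphragm, and their part in the Slc25a24 values was not tested.

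Among the further members that fell in the tibialis anterior, Slc25a12 encodes aralar, the aspartate-glutamate carrier of the shuttle in muscle. It ran from 10.55 through 10.77 to 11.11 in sham and from 10.18 through 10.65 to 10.89 in PDX arrays, and fell by 0.17 (0.886-fold, SE 0.05, adjusted p = 0.0325). Its cohort differences of -0.22, -0.12, -0.17 and -0.19 lay close together, and its call was lost in 9 of 29 fits without 1 array (adjusted p up to 0.0650). Slc25a15 encodes the ornithine carrier of the urea cycle. Its signal ran from 5.42 through 5.59 to 5.83 in sham and from 4.56 through 5.27 to 5.58 in PDX arrays. In cohorts 1, 3 and 4 all PDX arrays lay under all sham arrays, as for 1.77% of all genes in at least 3 cohorts. It fell by 0.35 (0.785-fold, SE 0.08, adjusted p = 0.00188). In the diaphragm its difference was -0.49 (SE 0.42, adjusted p = 0.558), with a wide interval of -1.35 to 0.37.

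Slc25a39, which mitochondria need to import glutathione, ran from 7.75 through 8.14 to 8.65 in sham and from 6.56 through 7.86 to 8.75 in PDX arrays of the tibialis anterior. It fell by 0.32 (0.803-fold, SE 0.10, adjusted p = 0.0336), with a cohort 2 difference of 0.12, and lost its call in 9 of 29 fits without 1 array (adjusted p up to 0.0732). Slc25a27, a relative of the uncoupling proteins, ran from 4.96 through 5.64 to 5.87 in sham and from 5.44 through 5.84 to 6.21 in PDX arrays. It rose by 0.23 (1.18-fold, SE 0.07, adjusted p = 0.0230). That call was lost without sham array 2 of cohort 2 (adjusted p = 0.0525), sham array 2 of cohort 3 (0.0578) or PDX array 3 of cohort 1 (0.0588).

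Tendon markers moved with treatment in the same muscle. Of 7, 6 fell in the tibialis anterior, with a median log2 difference of -1.58 and list means between 5.28 and 7.14 in sham arrays and between 3.94 and 5.81 in PDX arrays. Of the 7, 1 had a mean under 3.78 in sham and 3 in PDX arrays. With the tendon mean as a covariate no member passed in limma, standard errors were a median of 2.17 times those without it, and 4 members and 1232 of all genes had an unadjusted p under 0.05. Of all genes, 1 passed in that fit, 0.00431%. Treatment and the loss of tendon signal cannot be told apart in these samples.

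The most abundant transport steps of oxidative phosphorylation did not pass in either muscle. Slc25a4 encodes the main muscle ADP/ATP carrier. In the tibialis anterior it ran from 10.91 through 11.08 to 11.35 in sham and from 10.36 through 10.94 to 11.23 in PDX arrays, and in cohorts 2 and 3 every PDX array lay under every sham array. The log2 difference was -0.15 (95% interval -0.27 to -0.04, adjusted p = 0.0647), and in the diaphragm -0.18 (-0.35 to -0.00, adjusted p = 0.198). It passed in the tibialis anterior without PDX array 1, 3 or 5 of cohort 3 (adjusted p = 0.0494, 0.0425 and 0.0379). Slc25a3 encodes the phosphate carrier. Its differences were -0.09 (-0.19 to 0.01, adjusted p = 0.280) in the tibialis anterior and -0.18 (-0.33 to -0.03, adjusted p = 0.120) in the diaphragm.

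A further 5 members passed as lower in the diaphragm and did not pass in the tibialis anterior. The difference between muscles was tested separately. Slc25a42 encodes a coenzyme A carrier. It ran from 5.99 through 6.77 to 6.93 in sham and from 5.52 through 6.28 to 7.07 in PDX arrays. It fell by 0.43 (0.741-fold, SE 0.13, adjusted p = 0.0355), with cohort differences of -0.82, -0.64, 0.07 and -0.34. The call was lost in 14 of 29 fits without 1 array (adjusted p up to 0.0726), and without the hepatocyte-positive arrays the difference was -0.25 (adjusted p = 0.445).

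Slc25a34, a close relative of Slc25a35, ran from 6.07 through 6.76 to 7.37 in sham and from 5.54 through 6.43 to 6.87 in PDX diaphragm arrays. It fell by 0.42 (0.750-fold, SE 0.13, adjusted p = 0.0365), lost its call in 16 of 29 fits without 1 array (adjusted p up to 0.0826), and had a difference of -0.58 (adjusted p = 0.0506) without the hepatocyte-positive arrays. Slc25a29, a carrier of basic amino acids, ran from 3.76 through 4.07 to 4.48 in sham and from 3.32 through 3.75 to 4.09 in PDX arrays. It fell by 0.32 (0.799-fold, SE 0.07, adjusted p = 0.00441) at a signal close to the median of all values, and all 4 cohort differences were negative. It did not pass without the hepatocyte-positive arrays, at -0.38 (SE 0.12, adjusted p = 0.0838).

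Slc25a26, the carrier of the methyl donor S-adenosylmethionine, ran from 4.28 through 4.86 to 5.08 in sham and from 4.17 through 4.47 to 5.0 in PDX arrays. It fell by 0.31 (0.806-fold, SE 0.08, adjusted p = 0.0135), a call lost without the hepatocyte-positive arrays, at -0.37 (SE 0.13, adjusted p = 0.131). Slc25a46, an outer membrane protein of mitochondrial dynamics, ran from 7.88 through 8.09 to 8.70 in sham and from 7.66 through 7.81 to 8.16 in PDX arrays. It fell by 0.26 (0.836-fold, SE 0.07, adjusted p = 0.0165). In the fit without the hepatocyte-positive arrays its difference was -0.39, with 1 sham array left in cohort 3. That array read 8.70, the highest sham diaphragm value. In that limma fit no member rose, 11 had an unadjusted p under 0.05 in either direction, and Slc25a36, a pyrimidine nucleotide carrier, fell as well, at -0.41 (adjusted p = 0.0381), against 1.78% of all genes higher and 1.82% lower. Standard errors in it were a median of 1.38 times those with all arrays. For Slc25a36 the 1 sham array left in cohort 3 read 6.17, again the highest sham diaphragm value.

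With the hepatocyte mean as a covariate, the 2 members that rose and the 8 that fell in the diaphragm all passed again, and Slc25a12 passed too, at -0.27 (adjusted p = 0.0170). In that fit 6.97% of all genes were higher and 8.2% lower. Without the covariate the Slc25a12 difference was -0.27 (SE 0.09, adjusted p = 0.0573). Slc25a13, which encodes citrin, the liver aspartate-glutamate carrier, had a difference of -0.28 with an interval of -1.25 to 0.69. Its diaphragm values ran from 4.28 to 7.56 in sham and from 3.82 to 8.04 in PDX arrays. In the tibialis anterior its difference was -0.14 (adjusted p = 0.351), at signals of 2.75 to 3.81.

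The difference of the tumour effect between muscles was tested in the fit of all 58 arrays. Slc25a24 passed with a difference (diaphragm effect minus tibialis anterior effect) of 0.71 (95% interval 0.39 to 1.03, SE 0.16, adjusted p = 0.00271), and 3.66% of all genes were higher, of 6.33% that passed either way. Without the hepatocyte-positive arrays it was 0.75 (adjusted p = 0.0467). Slc25a42 passed with -0.55 (-0.85 to -0.24, SE 0.15, adjusted p = 0.0187), and 2.67% of all genes were lower. Without the hepatocyte-positive arrays its difference was -0.40 (adjusted p = 0.178). The other 43 members did not pass. The largest difference among them was that of Slc25a25, -0.52 (-1.02 to -0.02, adjusted p = 0.239). Intervals for Slc25a3 (-0.26 to 0.08), Slc25a4 (-0.22 to 0.18), Slc25a11 (-0.29 to 0.19), Slc25a12 (-0.31 to 0.12) and Slc25a20 (-0.22 to 0.26) were narrower than that for Slc25a13 (-1.13 to 0.85).

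In the tibialis anterior the difference of Slc25a25 ranged from -0.20 to 1.69 over the cohorts. Each cohort had its own tumour and its own sham arrays, so tumour and cohort cannot be told apart. Its transcript is known to respond quickly to hormonal and nutritional signals in other tissues. Sham arrays of cohort 3 read 5.54, 6.19 and 5.81 and PDX arrays 8.14, 7.46, 7.42, 7.27 and 7.39, a difference of 1.69. Sham arrays of cohort 4 read 7.47, 7.72 and 7.55, as high as the PDX arrays of that cohort at 7.27, 7.25, 7.62 and 7.66. Cohort 2 had a difference of 0.63. The sham arrays thus spanned a wider range than the PDX arrays, with those of cohort 3 lowest. The F test of limma for equal differences in the 4 cohorts gave F = 15.6 (adjusted p = 0.0451), 1 of 3 genes that passed, 0.0129% of all. The call was lost with the replicate number as a block (adjusted p = 0.0693) and after centring each array on its median (adjusted p = 0.0548). It was also lost in 23 of 29 fits without 1 array, with adjusted p between 0.00440 and 0.243. The block joined sham and PDX arrays of the same number in a cohort, which the labels do not pair. In the diaphragm the cohort differences of Slc25a25 were -0.37, -0.82, 0.91 and 0.17 (F = 3.23, adjusted p = 0.652).

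Within single cohorts, cohort 3 held most calls in the tibialis anterior. There Slc25a25, Slc25a27, Slc25a28 and Slc25a42 rose, by 1.69, 0.45, 0.97 and 0.47, and Slc25a15, Slc25a23 and Slc25a39 had differences of -0.55, -0.79 and -0.64, so that 4 members were higher and 3 lower against 3.89% and 4.07% of all genes. In cohort 1 Slc25a37 rose and Slc25a20 fell, against 1.15% and 1.31% of genes. No member passed in cohort 2, where 0% of genes passed each way, or in cohort 4, where 0.0906% were higher and 0.211% lower. In the diaphragm Slc25a28 rose in cohort 3, by 0.72 (SE 0.13, adjusted p = 0.00803), against 0.604% of genes higher and 0.457% lower. The other cohorts had no called member there, against 0.0216% and 0.0129% of genes higher and lower in cohort 1, 2.21% and 0.483% in cohort 2, and 0.0647% and 0.319% in cohort 4.

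Over the 4 cohorts of the tibialis anterior, 14 members had negative differences in all and 3 had positive ones, against 14.6% and 13.9% of all genes. Of these 6 also passed as lower and 1 as higher, against 5.83% and 5.59%. In the diaphragm 9 members were negative and 3 positive in all cohorts, against 14.6% and 12.2%, and 6 passed as lower and 1 as higher, against 6.01% and 4.87%. No member passed in opposite directions in the muscles, as did 0.0776% of genes (higher in the tibialis anterior) and 0.457% (lower there).

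The next members by this F test in the tibialis anterior were Slc25a37 (F = 7.62, adjusted p = 0.277), Slc25a51, an NAD carrier (5.26, 0.404), Slc25a42 (4.04, 0.546) and Slc25a39 (3.25, 0.641). Slc25a37 passed without PDX array 1 of cohort 3 (adjusted p = 0.0376). In the diaphragm no member passed in limma, 7 had an unadjusted p under 0.05, and 1 of all genes passed, 0.00431%. The smallest p-values there belonged to Slc25a28 (F = 6.70, adjusted p = 0.384), Slc25a24 (4.85, 0.490), Slc25a37 (4.01, 0.559), Slc25a33 (3.81, 0.575) and Slc25a20 (3.62, 0.600). Slc25a33, a pyrimidine nucleotide carrier, had cohort 3 differences of 0.65 in the tibialis anterior and 0.70 in the diaphragm, and differences of -0.57 to -0.05 in the other cohorts of both muscles.

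Promoter sequences were available for 35 members from RefSeq on GRCm38.p6, and the 250 bases before each listed start were searched on both strands. The cyclic AMP response element TGACGTCA was in 2 members, Slc25a25 and Slc25a36, and in 1.77% of 27025 genes. The E-box CACGTG was in 7 members, Slc25a1, Slc25a13, Slc25a14, Slc25a15, Slc25a31, Slc25a33 and Slc25a36, and in 6.86% of genes. Slc25a25 carried the cohort difference and shares its motif with Slc25a36. Slc25a13 had the largest log2 difference between sham muscles over all arrays, hepatocyte-positive ones included. The windows of Slc25a25, Slc25a36 and Slc25a13 are therefore shown. Each lies on the minus strand and reads 5′ to 3′ on the gene's strand, with the motif in capitals, at chr2:32424189-32424236, chr9:97111175-97111222 and chr6:6217273-6217318.
Slc25a25: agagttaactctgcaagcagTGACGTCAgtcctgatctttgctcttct
Slc25a36: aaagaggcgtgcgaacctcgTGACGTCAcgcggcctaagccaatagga
Slc25a13: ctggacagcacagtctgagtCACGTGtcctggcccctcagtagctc
The element of Slc25a25 starts 150 bases before the start site and that of Slc25a36 161 bases. The E-box of Slc25a13 starts 125 bases before its listed start. It lies inside the annotated span of that gene, which reaches to 6217304. The nuclear respiratory factor 1 motif was in Slc25a3 and Slc25a31 (4.23% of genes) and the MEF2 motif in Slc25a10 and Slc25a22 (3.7%). The oestrogen-related receptor motif TNAAGGTCA (1.3% of genes) and the glucocorticoid receptor motif (0.44%) were in no member's window.

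Between sham muscles, the diaphragm had more of the citrate carrier Slc25a1, the acylcarnitine carrier Slc25a20, the peroxisomal carrier Slc25a17 and Slc25a34, and less Slc25a25, than the tibialis anterior. Of the aspartate-glutamate carriers, Slc25a13, the liver form, was higher and Slc25a12, the muscle form, lower. Of 45 members 9 were higher and 10 lower in the diaphragm, against 15.2% and 24.5% of all genes, 39.7% together. The median difference was -0.01 over the members and -0.09 over all genes. Hepatocyte markers differed in the same direction: 17 of 17 were higher in the sham diaphragm, with a median log2 difference of 2.97. In the sham tibialis anterior 8 of 17 had a mean under 3.78, and in the diaphragm 0. Higher there too were 6 of 6 adipocyte (median 1.97) and 6 of 6 mesothelium markers (2.71). So were 7 of 7 macrophage (0.81) and 6 of 8 fibro-adipogenic and fibroblast markers (0.64), with none lower in these lists. In the sham tibialis anterior 2, 4, 1 and 0 of them had a mean under 3.78. Their part in the differences of the members was not tested.

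Slc25a34 ran from 6.07 through 6.76 to 7.37 in the sham diaphragm and from 3.85 through 4.88 to 5.84 in the sham tibialis anterior. The muscles did not overlap, and the difference was 1.81 (3.50-fold, SE 0.18, adjusted p = 3.72e-11). It was 2.01 without the hepatocyte-positive arrays and 1.91 with the hepatocyte covariate. Slc25a20 was 0.56 higher (1.47-fold, SE 0.09, adjusted p = 1.67e-06), with 0.65 and 0.58 in those fits. Slc25a24 was 0.65 higher (SE 0.12, adjusted p = 2.07e-05), with 0.71 and 0.83. Slc25a17, the peroxisomal carrier of cofactors such as coenzyme A, was 0.84 higher (SE 0.10, adjusted p = 2.24e-09), with 0.69 and 0.64. These 4 differences kept their call in both fits.

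**Figure D3:**
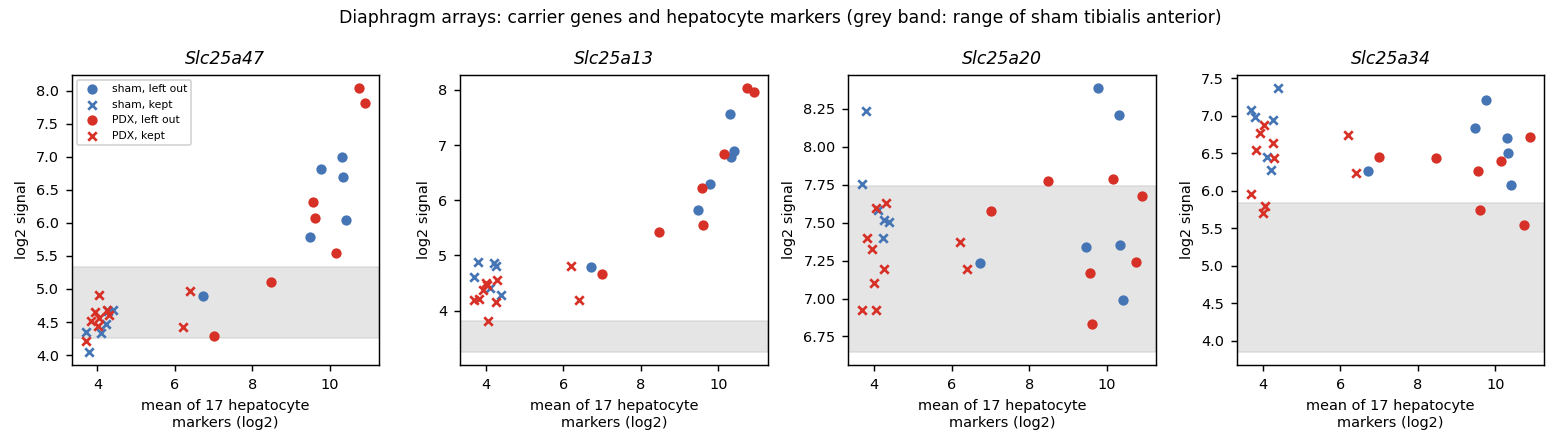
Log2 signal of 4 members against the mean of 17 hepatocyte markers in each diaphragm array, with circles for the 13 hepatocyte-positive arrays, crosses for the 16 others and a grey band for the range of the sham tibialis anterior. Slc25a47 and Slc25a13 reach 8.04 where the hepatocyte mean is high, while Slc25a34 lies above the band in every sham array.

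Further members had smaller differences in both hepatocyte fits. Slc25a13 ran from 4.79 through 6.53 to 7.56 in the 6 hepatocyte-positive sham diaphragm arrays, from 4.28 through 4.71 to 4.88 in the other 6, and from 3.25 through 3.37 to 3.81 in the sham tibialis anterior. Every diaphragm array thus lay above the tibialis anterior, also among the 6 others. With the tibialis anterior median under 3.78, where a difference is hard to measure, the difference over all arrays was 2.08 (4.24-fold, SE 0.37, adjusted p = 1.42e-05). It was 1.21 (SE 0.12, adjusted p = 7.20e-10) without the hepatocyte-positive arrays and 0.84 (SE 0.20, adjusted p = 0.000732) with the covariate. Slc25a1, the citrate carrier, had differences of 1.67 (3.19-fold, SE 0.25, adjusted p = 4.76e-07), 1.24 and 0.96 in these 3 fits. Slc25a22, a glutamate carrier, had 1.05 (SE 0.21, adjusted p = 6.66e-05), 0.71 and 0.60. Its sham diaphragm medians were close, 5.91 in the hepatocyte-positive arrays and 5.85 in the others.

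Slc25a23 had a difference of 1.01 (SE 0.25, adjusted p = 0.00105), 0.52 without the hepatocyte-positive arrays, and 0.30 with the covariate (adjusted p = 0.226). Slc25a10, the dicarboxylate carrier, had 0.97 (SE 0.26, adjusted p = 0.00237), 0.50, and 0.21 with the covariate (adjusted p = 0.419). Slc25a47, known from liver, ran from 4.89 through 6.37 to 6.99 in the hepatocyte-positive sham diaphragm arrays, from 4.04 through 4.41 to 4.69 in the others and from 4.26 through 4.70 to 5.34 in the tibialis anterior. Its difference of 0.58 (SE 0.34, adjusted p = 0.175) became -0.32 (adjusted p = 0.0277) without the hepatocyte-positive arrays and -0.58 (adjusted p = 0.00681) with the covariate. With Slc25a1, Slc25a13, Slc25a23 and Slc25a34, 4 members had all sham diaphragm arrays above all sham tibialis anterior arrays, as did 2.62% of all genes, and no member had the reverse, as did 2.17%.

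Slc25a25 was the member with the largest lower value in the diaphragm. It ran from 4.33 through 5.94 to 7.14 there and from 5.54 through 6.64 to 7.72 in the tibialis anterior, and the muscles overlapped. The difference was -0.73 (0.602-fold, SE 0.19, adjusted p = 0.00178), and -1.22 with the covariate. Cohorts 1 and 3 had 1 sham diaphragm array each that was not hepatocyte-positive, at 5.32 and 4.33, the lowest sham values of that muscle. With these, the fit without the hepatocyte-positive arrays gave -1.18. Slc25a28 had -0.40 (SE 0.10, adjusted p = 0.00104), and -0.35 without those arrays (adjusted p = 0.0589). Slc25a12 had -0.34 (SE 0.08, adjusted p = 0.000818), and -0.19 with the covariate (adjusted p = 0.0815). Slc25a11 had -0.27 (SE 0.09, adjusted p = 0.0140), -0.18 without those arrays (adjusted p = 0.202) and -0.11 with the covariate (adjusted p = 0.383).

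Slc25a27 had a difference of -0.35, Slc25a44, a carrier of branched-chain amino acids, -0.27, and the dim Slc25a41, Slc25a54, Slc25a53 and Slc25a2 -0.47, -0.29, -0.24 and -0.22. The call of Slc25a27 was lost both without the hepatocyte-positive arrays, at -0.24 (adjusted p = 0.0562), and with the covariate, at -0.17 (adjusted p = 0.107). The calls of Slc25a54, Slc25a53 and Slc25a2 were lost in both fits as well, and those of Slc25a44 and Slc25a41 were kept. The calls of Slc25a44, Slc25a54, Slc25a53 and Slc25a2 were lost in 3, 4, 1 and 15 of 24 fits without 1 sham array. Slc25a3 (0.09, -0.04 to 0.22, adjusted p = 0.294) and Slc25a4 (-0.02, -0.17 to 0.13, adjusted p = 0.848) did not pass. Without the hepatocyte-positive arrays 10 members were higher and 6 lower, against 11.9% and 12.3% of all genes, and 9 of the 9 and 4 of the 10 called before were among them. With the covariate 9 were higher and 7 lower, against 13.5% and 14.4%, and 7 and 4 of those called before were among them.

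**Figure D4:**
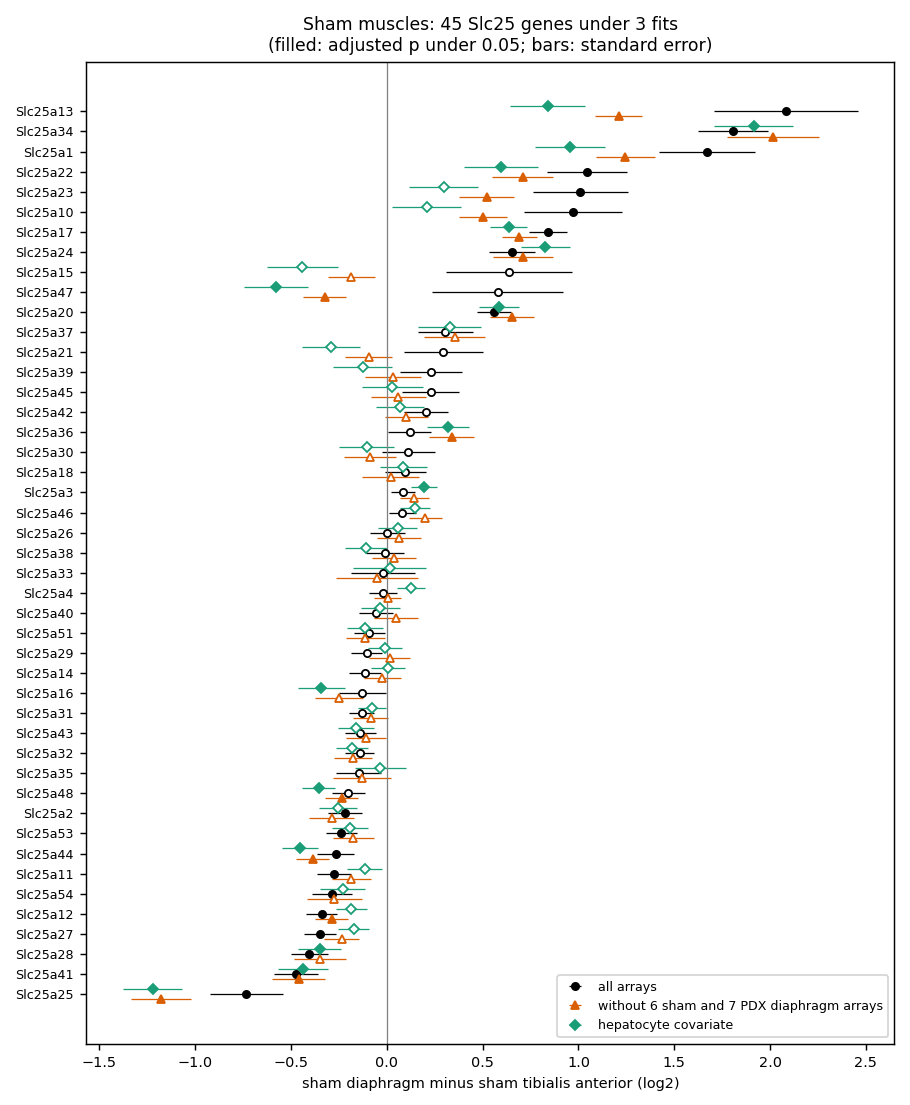
Sham diaphragm minus sham tibialis anterior log2 differences of all 45 members with standard errors, over all arrays, without the hepatocyte-positive arrays, and with the hepatocyte covariate. Filled symbols had an adjusted p under 0.05. Slc25a34 stays near 1.81 to 2.01, while Slc25a47 moves from 0.58 to -0.58.

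Genes that work beside the carriers were taken from fixed lists. Of 20 metabolic partners, 3 rose and 6 fell in the tibialis anterior and 6 fell in the diaphragm. Of all genes, 6.32% rose and 6.53% fell in the tibialis anterior, and 5.89% and 6.58% in the diaphragm. Ppif, the cyclophilin of the permeability transition pore, had differences of -0.60 (SE 0.15, adjusted p = 0.00550) and -0.45 (SE 0.12, adjusted p = 0.0166) in these muscles. Ckmt2, the mitochondrial creatine kinase that takes up ATP exported by Slc25a4, had -0.48 (SE 0.08) and -0.52 (SE 0.12). The malate dehydrogenases Mdh1 and Mdh2, which flank the shuttle, had -0.33 and -0.31 in the tibialis anterior and -0.30 and -0.24 in the diaphragm, and Cpt2, which acts after Slc25a20, had -0.20 and -0.34. All of these passed. Of the 6 diaphragm calls, 1 was kept without the hepatocyte-positive arrays, that of Ckmt2 at -0.53 (adjusted p = 0.0336). With the covariate all 6 were kept and 3 more partners fell. Of all genes, 1.82% were lower without those arrays and 8.2% with the covariate. Alas2, which starts haem synthesis in red cells, rose by 0.67 (SE 0.19) in the tibialis anterior. It is itself 1 of the 3 erythroid markers given above.

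Oat, ornithine aminotransferase, rose by 0.43 (SE 0.06) in the tibialis anterior, and its tumour effect was lower in the diaphragm by a difference of -0.38 (adjusted p = 0.00477), or -0.26 without the hepatocyte-positive arrays (adjusted p = 0.214). Between sham muscles 9 of the 20 partners were higher and 3 lower in the diaphragm, against 15.2% and 24.5% of all genes, led by Otc, a urea cycle enzyme of liver, at 2.25 (SE 0.77), Acly, which cleaves exported citrate, at 1.67 (SE 0.13), and Alas2 at 1.15 (SE 0.28). Of these, 7 of the 9 and 2 of the 3 kept their call without the hepatocyte-positive arrays, and 6 and 2 with the covariate. Otc was at -0.18 (adjusted p = 0.285) and -0.46 (adjusted p = 0.235) in those fits, Acly at 1.35 and 1.39, and Alas2 at 1.46 and 1.45.

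Of 15 genes for import and insertion of carriers, none passed in the tibialis anterior in limma (4 had an unadjusted p under 0.05) and 4 fell in the diaphragm. Of all genes, 6.53% fell in the tibialis anterior and 6.58% in the diaphragm. Tomm5, of the outer membrane translocase, had -0.48 (SE 0.16, adjusted p = 0.0434), Timm22, of the inner membrane insertase for carriers, -0.38 (SE 0.08, adjusted p = 0.00175), and Tomm22 -0.27 (SE 0.06, adjusted p = 0.00367). None of the 4 passed in limma without the hepatocyte-positive arrays, where 5 of the 15 had an unadjusted p under 0.05, and with the covariate all 4 did. Between sham muscles 1 was higher and 4 lower, against 15.2% and 24.5% of all genes. The lower ones were led by Timm29 at -0.44 (SE 0.07) and Timm8b at -0.35 (SE 0.06). These were at -0.33 and -0.25 without the hepatocyte-positive arrays and -0.36 and -0.25 with the covariate, and kept their call in both fits, while that of the 1 higher gene was lost in both.

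Of 9 other inner membrane transport genes, 3 fell in each muscle, against 6.53% (tibialis anterior) and 6.58% (diaphragm) of all genes. They were Sfxn1, a serine transporter, at -0.32 (SE 0.08), Micu2, a regulator of calcium uptake, at -0.25 (SE 0.07) and Letm1 at -0.24 (SE 0.06) in the tibialis anterior. In the diaphragm they were Sfxn4 at -0.59 (SE 0.11), Letm1 at -0.37 (SE 0.07) and Smdt1, a subunit of the calcium uniporter, at -0.32 (SE 0.07). Sfxn4 (-0.63) and Smdt1 (-0.48) passed without the hepatocyte-positive arrays and Letm1 did not (-0.37, adjusted p = 0.0700), and with the covariate all 3 passed. Sfxn4 differed between muscles (-0.58, SE 0.16, adjusted p = 0.0202), at -0.68 without the hepatocyte-positive arrays (adjusted p = 0.0599). Between sham muscles 3 were higher in the diaphragm, against 15.2% of all genes, led by Sfxn1 at 1.80 (SE 0.16). All 3 kept their call in both hepatocyte fits. Of 4 carriers with other symbols, none passed for the tumour in either muscle in limma, and 0 had an unadjusted p under 0.05 there, and between sham muscles Mtch1 was higher (0.67, SE 0.08) and Ucp3, uncoupling protein 3, lower (-1.17, SE 0.20), both also in the 2 hepatocyte fits.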

How the data were processed

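RNA was labelled with biotin for Affymetrix arrays, per the labels. Per the submitters' processing notes, which name RMA, affy 1.36.1 and R 2.15.1, the authors deposited log2 values. The build and the definition of the probe sets were not given in the sources used here. Of 25206 probe sets, 23185 had 1 gene symbol and 2021 had none, through the platform annotation. The highest correlation of 2 arrays was 0.993.

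Tests were run with limma 3.58.1 and statmod 1.5.0 in R 4.3.3, with no filter. The model for 1 muscle had 8 group means, and its tumour effect averaged the 4 cohort differences with equal weight. Differences between muscles came from all 58 arrays with 16 group means. Adjusted p-values are two-sided Benjamini-Hochberg values over all 23185 genes, and a gene passed under 0.05. SE is limma's moderated standard error, and the number of arrays limits the precision. Scripts were tested on simulated data.

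Members and lists were chosen with earlier results of these data known. Members described in full were the up to 10 largest called differences per direction and comparison, the 5 members lowest in F-test p per muscle, and Slc25a3, Slc25a4, Slc25a11, Slc25a12, Slc25a13, Slc25a20 and Slc25a25. Up to 3 genes with the largest called differences were named per list, and Slc25a47 in the diaphragm. Slc25a33, Slc25a36, Slc25a40, Mdh1, Mdh2, Cpt2 and Alas2 in the tibialis anterior were chosen for mention after their values were seen. Hepatocyte-positive arrays had a hepatocyte mean more than 0.5 above the diaphragm median. Alternatives were a filter on dim genes, median centring, trended and robust variances, array weights, a replicate block, only the sham arrays, and leaving out arrays or cohorts. Tendon and hepatocyte covariates and the cohort as the replicate were also run.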

Additional observations from a re-analysis of the deposited data

Results flagged for a closer look

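Arrays standing apart from the rest of their group were sought in the 87 groups of 4 or 5 arrays for the members described with values, and 15 were found. Chance alone marks about 1 in 20 such groups, and values of 1 array are not independent.

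In the PDX tibialis anterior, array 1 of cohort 2 lay below its 4 companions for Slc25a4 at 10.8, Slc25a11 at 9.31 and Slc25a12 at 10.4. Array 1 of cohort 3 was low for Slc25a3 at 8.85 and high for Slc25a25 at 8.14 and Slc25a28 at 8.65.

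In the PDX diaphragm, array 4 of cohort 3, with a hepatocyte mean of 10.9, was low for Slc25a4 at 10.4 and Slc25a11 at 8.73 and high for Slc25a13 at 7.95 and Slc25a47 at 7.81. Array 3 of cohort 4, with a hepatocyte mean of 10.7, was high for Slc25a13 at 8.04 and Slc25a47 at 8.04. Array 5 of cohort 2 was high for Slc25a24 at 6.74, array 4 of cohort 4 high for Slc25a26 at 4.64, and array 1 of cohort 4 high for Slc25a29 at 3.85.

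The tumour effect differed between muscles by the interaction test for Slc25a24, at 0.71, and for Slc25a42, at -0.55. It differed between cohorts in the tibialis anterior for Slc25a25, with F = 15.6, a call lost with the replicate number as a block.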

How the results depend on the processing

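Trended and robust variances and a fit of the sham arrays alone kept the counts of called members within 1.5 times. Restricting to genes above the median level gave 6 members higher in the tibialis anterior, 2 with a lower effect in the diaphragm than in the tibialis anterior, and 6 lower in the sham diaphragm. Centring each array gave 4 lower in the tibialis anterior, 0 with cohort differences there, and 2 with a lower diaphragm effect. Array weights gave 5 higher in the tibialis anterior, 2 with cohort differences there and 5 with a lower diaphragm effect. With the cohort as the replicate, the tibialis anterior had 1 member higher and 2 lower, and the diaphragm 0 and 1. The tendon covariate gave 0 and 0 in the tibialis anterior and turned Slc25a3 to 0.035, Slc25a4 to 0.0055, Slc25a23 to 0.045 and Slc25a39 to 0.26.

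Deviations of same-numbered samples of the 2 muscles correlated between -0.22 and 0.22 over 29 pairs (median 0.02). Only 4 pairs lay over 0.1, and the numbers were not taken as pairs. Of the 29, 13 matched their own number best, where 1 in each of the 8 groups would do so by chance. All 8 pairs of cohort 2 were positive (0.02 to 0.22), and 7 matched best, against 1 of 8 in cohort 3. A replicate block on the number left 0 members with cohort differences in the tibialis anterior and changed no other count of calls. In the fits of 1 muscle it joined same-numbered sham and PDX arrays of a cohort. Their deviations had a median correlation of -0.02 in the tibialis anterior and 0.04 in the diaphragm. Only in the fit of all arrays did the block join same-numbered samples of the 2 muscles.

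Without cohort 1, 3 members were lower in the tibialis anterior, the diaphragm had 0 higher and 2 lower, 0 had a lower diaphragm effect, and 6 were lower in the sham diaphragm. Without cohort 2, 1 was higher and 3 lower in the diaphragm, and the muscles differed for 0 and 0. Without cohort 3, 0 were higher in the diaphragm and 2 had a lower diaphragm effect. Without cohort 4, 4 were lower in the tibialis anterior, 3 in the diaphragm, and 2 had a lower diaphragm effect. Without the hepatocyte-positive arrays, 0 were higher and 2 lower in the diaphragm, 0 had a lower diaphragm effect and 6 were lower in the sham diaphragm. The hepatocyte covariate, chosen for tumour effects after seeing the data, gave 2 with a lower diaphragm effect and, without cohort 1, 1 higher and 4 lower in the diaphragm.

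Signs turned for the values below. For the diaphragm minus tibialis anterior effect, Slc25a20 was -0.018 after centring, -0.013 without cohort 1, -0.088 without cohort 3 and -0.15 without the hepatocyte-positive arrays. Slc25a4 was 0.021 with weights, 0.064 without cohort 4 and 0.030 without those arrays, Slc25a11 0.0040 with weights and 0.040 without cohort 2, and Slc25a13 0.00040 with the covariate. In the diaphragm, Slc25a25 was 0.087 without cohort 1, 0.24 without cohort 2, 0.25 without the hepatocyte-positive arrays and 0.13 with the covariate and no cohort 1. Slc25a47 was 0.22, 0.062 and 0.32 without cohort 1, without those arrays, and with the covariate and no cohort 1. In sham muscles, Slc25a4 was 0.018 without cohort 2, 0.0042 without those arrays and 0.13 with the covariate, and Slc25a47 was -0.32 and -0.58. The cause of these turns was not tested.

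Leaving out 1 array gave 2 to 5 members higher and 4 to 9 lower in the tibialis anterior, 4 to 10 lower in the diaphragm, 1 to 2 with a lower diaphragm effect, and 0 to 2 with cohort differences in the tibialis anterior. The count of 5 came without sham array 1 of cohort 3 and that of 4 without sham array 3 of cohort 1. Signs turned in 7 of 58 such fits for Slc25a20 (-0.027 to 0.050), 3 for Slc25a13 (-0.38 to 0.040) and 2 for Slc25a4 (-0.051 to 0.032) in the difference between muscles. In the diaphragm they turned in 8 of 29 for Slc25a25 (-0.15 to 0.075) and 5 for Slc25a47 (-0.32 to 0.11). Signals near 3.78 limit the 11 dim members.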
